A study of Homo sapiens with 6 samples.

Results

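The 42 genes described here encode proteins that act in G2 and mitosis, and they were taken by symbol from a list of names that uses no measured value as a criterion, although it was drawn up with earlier results of these data known. All 42 were found among the 28008 gene symbols of the count table, and all 42 passed the filter on low counts that left 17026 genes. They were measured by RNA-Seq in NCI-H660 (H660) cells, an established line of neuroendocrine prostate cancer (NEPC). All 6 libraries came from H660 cells carrying a tetracycline-inducible MUC1 shRNA; 3 libraries (DOX_negative) came from cells given 0.1% DMSO as vehicle and 3 (DOX_positive) from cells given doxycycline (DOX) at 500 ng/ml. Per the study's figure legends DOX was given for a week. The libraries hold no DOX-treated cells with a control shRNA, so the effects of DOX and of the shRNA cannot be told apart. Nothing says whether the triplicate cultures were independent, so the p-values measure the spread between these libraries, which may be technical.

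MUC1, the targeted gene, was at 88.2, 90.2 and 79.6 CPM in the DOX_negative libraries and at 36.7, 37.2 and 29.9 CPM in the DOX_positive libraries. These groups did not overlap, and the log2 fold change of MUC1 was −1.32 (SE 0.096, edgeR quasi-likelihood test, adjusted p = 0.00017). CPM are counts scaled to a common library size with TMM factors, and they are the unit for all single libraries below. Totals ranged from 47620696 to 74061121 counts per library, and no member had fewer than 858 counts in any library. The summed level of 6 neuroendocrine markers was 752 to 840 unscaled CPM in DOX_negative libraries and 621 to 744 in DOX_positive libraries. The single markers differed in direction. In the same order, NCAM1 was at 187.5 to 218.4 and 122.7 to 160.1, and INSM1 at 103.4 to 119.1 and 66.1 to 92.1. CHGA was at 195.4 to 239.7 and 190.7 to 194.7, and CHGB at 49.2 to 67.5 and 68.3 to 81.5. SYP and ENO2 overlapped between the groups. The luminal markers KLK3 and KLK2 stayed under 10 counts in every library, as did the immune markers PTPRC, CD3E and LYZ and the fibroblast markers COL3A1, DCN and PDGFRB. The luminal marker TMPRSS2 was detected, at 2.625 to 3.17 unscaled CPM in DOX_negative libraries and 2.09 to 2.74 in DOX_positive libraries. The summed level of the 6 fibroblast markers was 25.2 to 30.7 and 23.3 to 27.4 unscaled CPM in the DOX_negative and DOX_positive libraries, and that of the 5 immune markers 2.5 to 2.86 and 3.42 to 3.74.

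Cells enter mitosis when cyclin B and its kinase CDK1 are activated, with help from the CDC25 phosphatases and the kinases PLK1 and Aurora A. The spindle then attaches to kinetochores under the watch of the spindle checkpoint, and the anaphase-promoting complex with CDC20 triggers chromosome separation. The transcripts of these genes are low in G1 and accumulate in G2 and M, which is why MKI67 and its companions are used as proliferation markers, also in NEPC. Their promoters are known for CCAAT boxes, bound by NF-Y, and for the cell cycle genes homology region (CHR), bound by the MuvB complex together with B-MYB or FOXM1.

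The promoters of 7 members from RefSeq (GRCh38.p14) are shown because they hold the letters that many of these genes share, or lack them. Each line gives the 120 bases before the annotated start, 5′ to 3′ on the gene's strand. Capitals mark CHR letters (TTTGAA and its reverse complement TTCAAA, or TTCGAA, which reads the same on both strands) and CCAAT letters (CCAAT or ATTGG on the other strand), and overlapping matches run together.
MKI67 (chr10:128126424-128126543, minus strand): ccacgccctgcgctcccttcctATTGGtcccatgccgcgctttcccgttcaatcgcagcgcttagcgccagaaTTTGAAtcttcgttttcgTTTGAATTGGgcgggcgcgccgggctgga
TOP2A (chr17:40417897-40418016, minus strand): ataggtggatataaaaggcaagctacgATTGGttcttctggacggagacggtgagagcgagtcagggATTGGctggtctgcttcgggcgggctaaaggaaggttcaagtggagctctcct
CCNB1 (chr5:69167030-69167149, plus strand): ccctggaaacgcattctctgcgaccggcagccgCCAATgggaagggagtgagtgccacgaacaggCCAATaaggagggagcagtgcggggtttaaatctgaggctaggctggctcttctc
CCNB2 (chr15:59105026-59105145, plus strand): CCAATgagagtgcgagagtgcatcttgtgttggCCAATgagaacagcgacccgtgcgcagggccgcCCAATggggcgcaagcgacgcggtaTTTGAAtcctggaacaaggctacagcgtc
PLK1 (chr16:23678769-23678888, plus strand): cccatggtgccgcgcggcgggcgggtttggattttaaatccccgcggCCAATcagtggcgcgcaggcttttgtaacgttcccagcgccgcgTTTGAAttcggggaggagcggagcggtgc
CDC20 (chr1:43358861-43358980, plus strand): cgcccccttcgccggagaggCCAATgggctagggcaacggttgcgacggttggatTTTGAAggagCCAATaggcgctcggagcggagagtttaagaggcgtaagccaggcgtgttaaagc
KIF2C (chr1:44739717-44739836, plus strand): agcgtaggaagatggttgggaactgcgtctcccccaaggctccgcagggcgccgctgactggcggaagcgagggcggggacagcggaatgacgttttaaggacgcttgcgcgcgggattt

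In PLK1, CCNB2 and MKI67 a TTTGAA begins 29 bases before the start, and in MKI67 a further one begins 47 bases before it. In CDC20 the TTTGAA begins 65 bases before the start. CCNB1 and TOP2A show 2 CCAAT matches each and no CHR letters in this stretch, and KIF2C shows neither. Other spellings of the CHR were not searched for, so a promoter without these letters may still hold a CHR. The promoter table (250 bases before to 50 after each start) held 45 promoters of 34 members; UBE2C, TTK, FOXM1, TPX2, BIRC5, RACGAP1, BUB3 and AURKA were not matched. CHR letters were in 64.4% of these 45 promoters, compared with 16.4% of all 35116 promoters of the table, 42.1% of 145 promoters of other G2/M genes and 5.36% of 56 promoters of G1/S genes. CCAAT letters were in 68.9% of the members' promoters, 34.6% of all promoters, 51.7% for other G2/M genes and 58.9% for G1/S genes. Both kinds were in 51.1% of the members' promoters and 6.38% of all promoters. A match is a description of letters, not a measured binding site. The 26 members with CHR letters had a median log2 fold change of −0.097 and the 8 members without them −0.098. For the 8 members not matched to a promoter it was −0.054. The members' changes were small and only these spellings were searched for, so this split says little about the CHR.

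The level of the 42 genes was close in DOX_negative and DOX_positive cells. No member was called at an adjusted p under 0.05 in the edgeR quasi-likelihood test, against 4.87% of all tested genes (829 of 17026). DESeq2 and limma-voom also called 0 members, against 6% of 22564 and 3.97% of 17026 genes. Limma on log2(TPM + 1), where TPM are counts per gene length rescaled to a common total, called 0 members as well, but it called only 0.256% of 11707 genes, so that its count says little about the members. At an unadjusted p under 0.05 there were 2 members, CCNB1 and AURKA, both lower with DOX, against 21.1% of all tested genes in either direction and 9.53% of them lower. The median log2 fold change over the members was −0.085, a decrease of 5.7%, and the median over all tested genes was 0.00034. The estimate was below 0 for 34 members and above 0 for 8, and 49.9% of all tested genes were below 0. These directions are not 34 separate observations, since all 42 genes were read in the same 6 libraries. In bulk RNA, fewer cells in G2 and M and less of these transcripts per cell cannot be told apart.

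The intervals bound the size of a change only as far as the spread between these libraries measures it, and that spread may be technical. The 95% intervals of 41 of the 42 members lay within a 1.5-fold change in either direction and those of 23 within 1.25-fold; CENPE and TTK had the widest intervals. The SE of a member's log2 fold change was 0.094 at the median, with a range of 0.075 to 0.22. A p-value over the threshold does not show that a level was the same, but none of these intervals reached a change as large as that of MUC1.

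**Figure D1:**
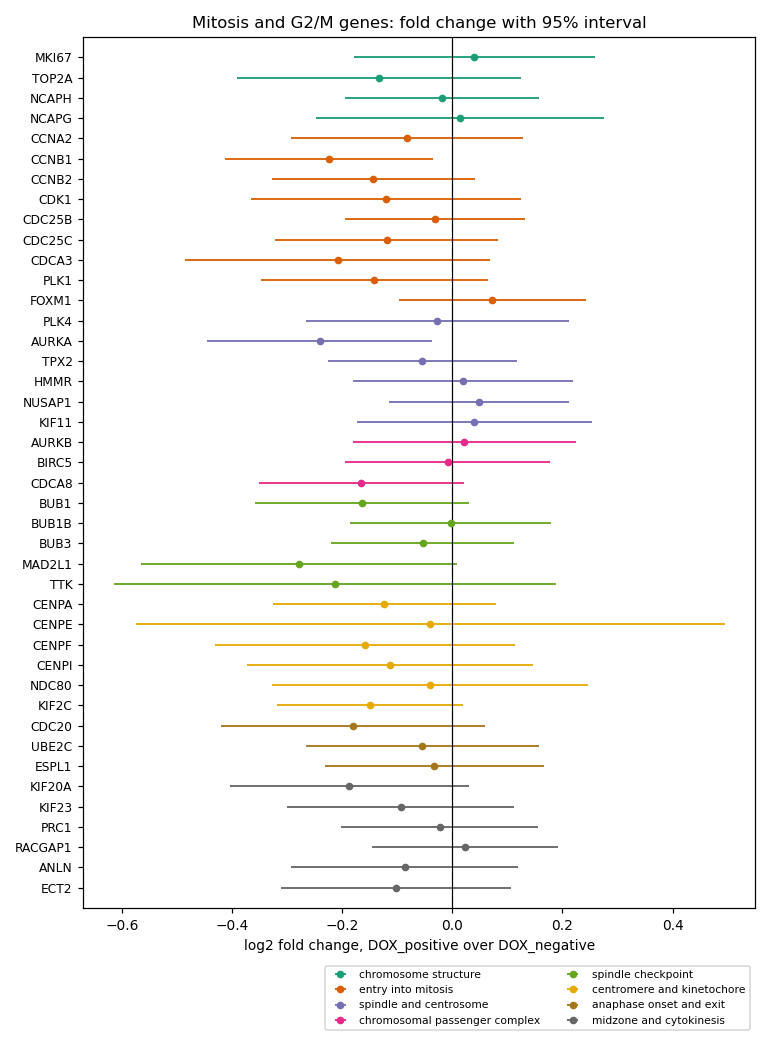
Log2 fold change of DOX_positive over DOX_negative libraries (horizontal axis) for the 42 mitosis and G2/M genes (vertical axis), with points for the edgeR estimate, bars for the 95% interval and colours for the role of the gene. Estimates run from −0.28 (MAD2L1) to 0.073 (FOXM1), and the bars of CCNB1 and AURKA alone end below 0.

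Among the 9 genes of mitotic entry, 0 were called and 8 were below 0. CCNB1, the cyclin that activates CDK1 at mitotic entry, was at 92.9, 91.5 and 96.0 CPM in DOX_negative libraries and at 90.8, 75.2 and 74.2 CPM in DOX_positive libraries. All 3 DOX_positive values lay below the DOX_negative ones, with replicate 1 close to them. The log2 fold change was −0.22 (SE 0.087, 95% interval −0.41 to −0.034, edgeR adjusted p = 0.16). CDK1, the kinase partner, was at 129, 141 and 159 CPM without DOX and at 151, 109.6 and 134 CPM with DOX. Its groups overlapped, and its log2 fold change was −0.12 (SE 0.11, edgeR adjusted p = 0.59). PLK1, a kinase of entry, spindle assembly and cytokinesis, was at 89.8, 92.9 and 89.7 CPM in DOX_negative libraries and at 84.9, 92.1 and 70.0 CPM in DOX_positive libraries. Here DOX_positive replicate 3 was the lowest library and replicate 2 lay among the DOX_negative values (log2 fold change −0.14, SE 0.095, edgeR adjusted p = 0.43).

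FOXM1, the transcription factor that drives many G2/M genes, had the highest estimate of the 42. It was at 89.1, 86.6 and 83.0 CPM without DOX and at 93.8, 95.6 and 82.7 CPM with DOX. The groups overlapped, since DOX_positive replicate 3 lay below all DOX_negative libraries (log2 fold change 0.073, SE 0.078, edgeR adjusted p = 0.65). CDCA3, an adaptor for degradation of the CDK1 inhibitor WEE1, was at 23.2, 24.0 and 23.0 CPM and at 22.2, 23.0 and 15.6 CPM. DOX_positive replicate 2 missed the lowest DOX_negative value by 0.010 CPM, so that non-overlap rested on a small gap, and the log2 fold change was −0.21 (SE 0.13, edgeR adjusted p = 0.38). CDCA3 is named, as are KIF2C and CENPE below, after its values were seen. The other 4 genes of entry, CCNA2, CCNB2, CDC25B and CDC25C, had log2 fold changes between −0.14 (CCNB2) and −0.031 (CDC25B).

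Of the 6 spindle and centrosome genes, 0 were called and 3 were below 0. AURKA, the Aurora A kinase of the spindle poles, was at 79.0, 84.2 and 81.7 CPM in DOX_negative libraries and at 78.8, 67.9 and 60.4 CPM in DOX_positive libraries. The groups did not overlap, but DOX_positive replicate 1 differed from the lowest DOX_negative library by 0.12 CPM. Its log2 fold change was −0.24 (SE 0.094, 95% interval −0.45 to −0.036, edgeR adjusted p = 0.17). NUSAP1, which bundles spindle microtubules, was at 80.9, 88.6 and 88.0 CPM and at 93.7, 84.5 and 88.0 CPM (log2 fold change 0.048, SE 0.075, edgeR adjusted p = 0.77). KIF11, the motor that pushes spindle poles apart, was at 80.6, 89.8 and 91.2 CPM and at 101, 77.5 and 90.0 CPM (log2 fold change 0.040, SE 0.098, edgeR adjusted p = 0.86). Both overlapped, and in both DOX_positive replicate 1 was the highest of the 6 libraries. PLK4, TPX2 and HMMR had log2 fold changes of −0.027, −0.054 and 0.019.

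In the spindle checkpoint group, which delays anaphase until kinetochores are attached, 0 of 5 genes were called and all 5 were below 0. MAD2L1, the checkpoint protein that holds back CDC20, had the lowest estimate of the 42 genes. It was at 21.7, 23.7 and 30.3 CPM in DOX_negative libraries and at 23.7, 17.99 and 20.6 CPM in DOX_positive libraries. The groups overlapped, and DOX_negative replicate 3 alone was high (log2 fold change −0.28, SE 0.13, edgeR adjusted p = 0.25). TTK, the kinase that recruits checkpoint proteins to kinetochores, was at 63.8, 73.1 and 74.4 CPM without DOX and at 73.4, 42.6 and 66.1 CPM with DOX. Only DOX_positive replicate 2 was below the DOX_negative range (log2 fold change −0.21, SE 0.18, edgeR adjusted p = 0.55). BUB1, BUB1B and BUB3 lay between −0.16 (BUB1) and −0.0031 (BUB1B).

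**Figure D2:**
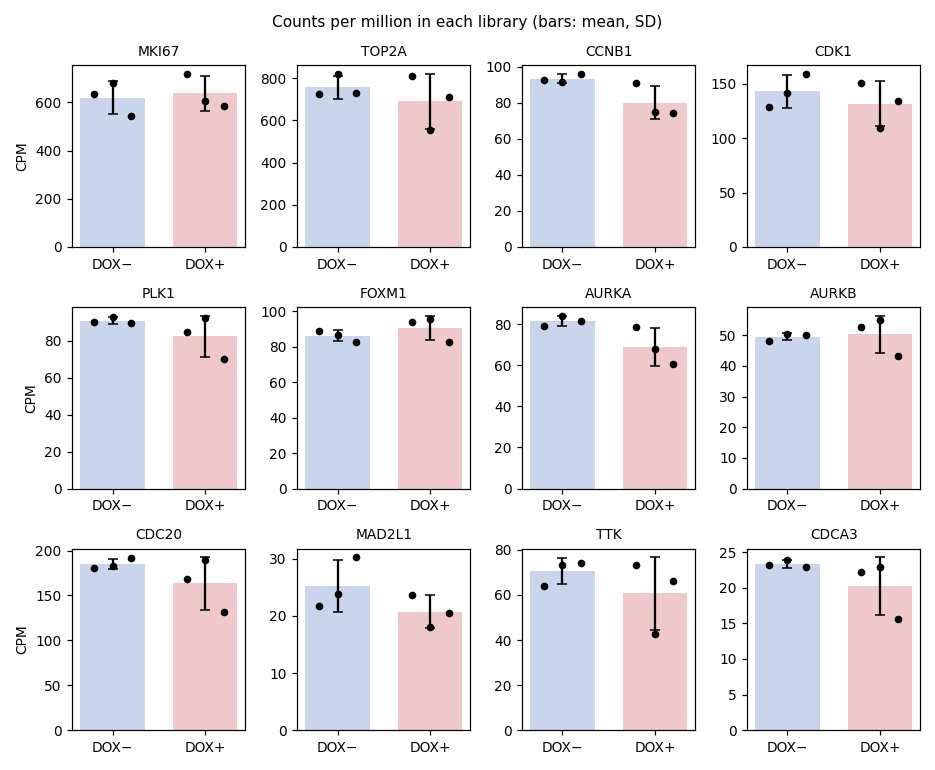
CPM (vertical axes, from 0) of 12 members in DOX_negative (DOX−) and DOX_positive (DOX+) libraries, with points for replicates 1 to 3 from left to right, bars for means and whiskers for the SD (n = 3). For TTK, TOP2A and CDK1 the low DOX_positive point is replicate 2, and for CDCA3, CDC20 and PLK1 it is replicate 3.

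The 6 centromere and kinetochore genes held 0 calls, and all 6 were below 0 with log2 fold changes of −0.16 (CENPF) to −0.040 (NDC80). KIF2C, a kinesin that removes faulty microtubule attachments, was at 130.3, 133 and 133 CPM in DOX_negative libraries and at 129, 120.5 and 108 CPM in DOX_positive libraries. These groups did not overlap (log2 fold change −0.15, SE 0.078, edgeR adjusted p = 0.30). CENPE, the kinesin that moves chromosomes to the spindle equator, was at 52.9, 66.0 and 53.7 CPM and at 67.0, 36.9 and 63.9 CPM. DOX_positive replicate 2 was the lowest of the 6 libraries and replicate 1 the highest, and the log2 fold change was −0.040 with the widest error of the list (SE 0.22).

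In all, 4 members, CCNB1, CDCA3, AURKA and KIF2C, had all DOX_positive libraries below all DOX_negative libraries, and 0 had them all above. Over all tested genes 13.3% had them all below and 14.8% all above. Whether the members differed from this background was not tested, and the members are not separate observations, since all were read in the same libraries. The gap between the groups was 0.010 CPM for CDCA3, 0.12 CPM for AURKA, 0.74 CPM for CCNB1 and 1.72 CPM for KIF2C.

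Chromosome structure genes gave 0 calls of 4. MKI67, which coats mitotic chromosomes and is the usual proliferation marker, was at 634, 680.1 and 545 CPM in DOX_negative libraries and at 719, 606 and 587 CPM in DOX_positive libraries. The ranges overlapped, with means of 619.8 ± 68.4 and 637 ± 71.1 CPM (SD, n = 3) and a log2 fold change of 0.040 (SE 0.10, edgeR adjusted p = 0.86). TOP2A, the topoisomerase that untangles sister chromatids, was at 723, 821 and 728 CPM without DOX and at 809, 553 and 709.6 CPM with DOX. DOX_positive replicates 2 and 3 lay below the DOX_negative range, replicate 2 by more, and replicate 1 lay inside it (log2 fold change −0.13, SE 0.12, edgeR adjusted p = 0.57). The condensin subunits NCAPH and NCAPG had log2 fold changes of −0.018 and 0.014.

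The chromosomal passenger complex, which corrects attachments and guides cytokinesis, had 0 calls of 3. AURKB, its Aurora B kinase, was at 48.1, 50.3 and 50.2 CPM in DOX_negative libraries and at 52.7, 54.9 and 43.3 CPM in DOX_positive libraries. DOX_positive libraries lay on both sides of the DOX_negative range (log2 fold change 0.022, SE 0.093, edgeR adjusted p = 0.93). BIRC5 and CDCA8, its survivin and borealin subunits, had log2 fold changes of −0.0079 and −0.16.

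Anaphase onset and exit genes gave 0 calls of 3, with all 3 below 0. CDC20, the activator of the anaphase-promoting complex, was at 181, 183 and 192 CPM in DOX_negative libraries and at 169, 189.7 and 132 CPM in DOX_positive libraries. Replicates 1 and 3 were below and replicate 2 within the DOX_negative range (log2 fold change −0.18, SE 0.11, edgeR adjusted p = 0.38). The ubiquitin-conjugating enzyme UBE2C and the separase gene ESPL1 were at −0.054 and −0.033. The 6 midzone and cytokinesis genes, which build the central spindle and the contractile ring, also gave 0 calls, with log2 fold changes between −0.19 (KIF20A) and 0.023 (RACGAP1).

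Per length, the members spanned a wide range of levels. Mean TPM in DOX_negative libraries was highest for TOP2A (71.2 ± 13.3, SD, n = 3), CDC20 (65.0 ± 6.89) and UBE2C (64.7 ± 12.7), which did not differ beyond their spread. TPX2 (42.5 ± 7.99) and CENPF (34.6 ± 7.81) followed, and PLK4 was lowest (2.62 ± 0.305). MKI67 was at 26.5 ± 6.17 TPM. Counts of UBE2C, which has 5 annotated pseudogenes, and of AURKA and NCAPG, with 2 each, are uncertain where reads fit several copies. In all, 23 members have a pseudogene copy or overlap another annotated gene, and the strand setting of the counting is not given in the sources used here.

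Most members varied more among the DOX_positive libraries than among the DOX_negative libraries. The SD of log2 CPM was larger in DOX_positive than in DOX_negative libraries for 39 of the 42 members, and for 66.9% of all tested genes. Its median over the members was 0.073 in DOX_negative and 0.18 in DOX_positive libraries, compared with 0.095 and 0.15 over all tested genes. DOX_positive replicate 1 was the highest DOX_positive library for 33 members and the lowest for 0. Replicate 2 was the lowest for 18 members and replicate 3 for 24.

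A per-library level shows the same. It is the mean over a list of each gene's log2 CPM minus its mean over the 6 libraries. For the 42 members it was −0.015, 0.085 and 0.068 in DOX_negative replicates 1 to 3 and 0.10, −0.13 and −0.12 in DOX_positive replicates 1 to 3. DOX_positive replicate 1 was thus the highest of the 6, and replicates 2 and 3 were the lowest. Without DOX_positive replicate 1 the median log2 fold change of the members was −0.18 and 2 members, CCNB1 (−0.32, SE 0.084, edgeR adjusted p = 0.045) and AURKA (−0.35, SE 0.092, edgeR adjusted p = 0.047), were called lower, against 2.44% of 17191 genes called lower in that fit. Without DOX_positive replicate 2 the median was −0.027, and 14 members were above 0. Without DOX_positive replicate 3 it was −0.051, and without DOX_negative replicate 1 it was −0.13.

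**Figure D3:**
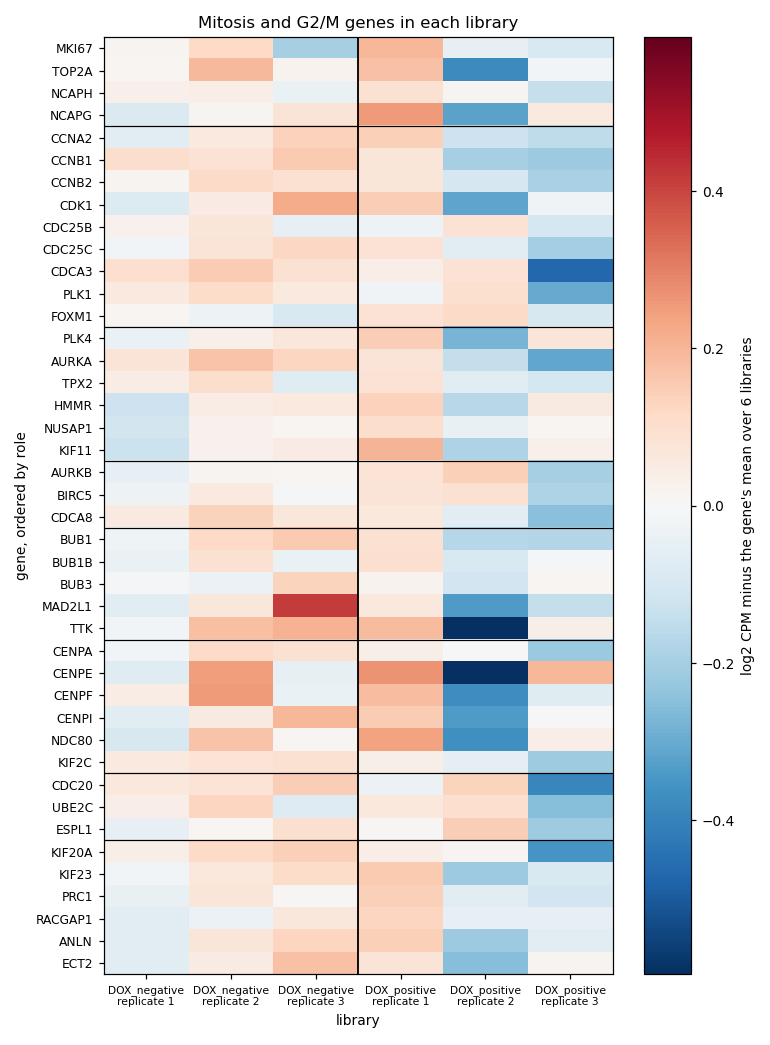
Log2 CPM of each of the 42 members (rows, ordered by role, with lines between roles) minus that gene's mean over the 6 libraries (columns), on a colour scale from blue (lower) to red (higher). DOX_positive replicate 1 is mostly red, replicate 2 is bluest for TTK and CENPE, and replicate 3 for CDCA3 and CDC20.

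DOX_positive replicates 2 and 3 were low in different members. Replicate 2 lay 0.79 below replicate 3 on the log2 scale for CENPE, 0.63 below for TTK and 0.41 below for NDC80, and it lay 0.56 above replicate 3 for CDCA3, 0.52 above for CDC20 and 0.39 above for PLK1. By role, the per-library level in replicate 2 was −0.29 for centromere and kinetochore genes and −0.26 for the spindle checkpoint, where replicate 3 was at −0.045 and −0.056. For anaphase onset and exit the order turned, with 0.13 in replicate 2 and −0.28 in replicate 3, and for the chromosomal passenger complex it was 0.054 and −0.21. These contrasts between roles changed when trends with GC content and length were removed from each library. The levels in replicates 2 and 3 were then −0.17 and −0.099 for centromere and kinetochore genes, −0.11 and −0.13 for the spindle checkpoint, 0.0071 and −0.25 for anaphase onset and exit, and −0.041 and −0.19 for the chromosomal passenger complex. Replicate 2 was thus no longer the lower of the 2 for the spindle checkpoint.

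The difference between these 2 libraries followed the base composition of the transcripts. Across the 42 members, the log2 difference of replicate 2 minus replicate 3 had a Spearman rho of 0.92 with the GC content of the longest GENCODE transcript and of −0.44 with its length. The same rho was 0.66 and −0.24 over 15830 tested genes with a value, so the relation was not particular to mitotic genes. Replicate 2 minus replicate 1 gave a rho with GC content of 0.90 over the members and 0.64 over all these genes, so replicate 2 stood apart from both other DOX_positive libraries. Other pairs followed GC content in the opposite direction, with a rho over the members of −0.57 for DOX_positive replicate 3 minus replicate 1 and of −0.66 for DOX_negative replicate 2 minus replicate 1 (−0.16 over all these genes in both cases). These are descriptions across genes of the same libraries, and genes are not independent replicates. The 14 members of lowest GC content (35.3 to 41.0%), among them CENPE, CDK1, TOP2A and TTK, had a median deviation of −0.33 in replicate 2 and 0.025 in replicate 3. The 14 of highest GC content (48.1 to 59.3%), among them PLK1, CDC20, MKI67 and AURKB, were at 0.089 and −0.21. All 6 genes of anaphase onset and exit and of the chromosomal passenger complex are among these 14, so their role and their base composition cannot be told apart.

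**Figure D4:**
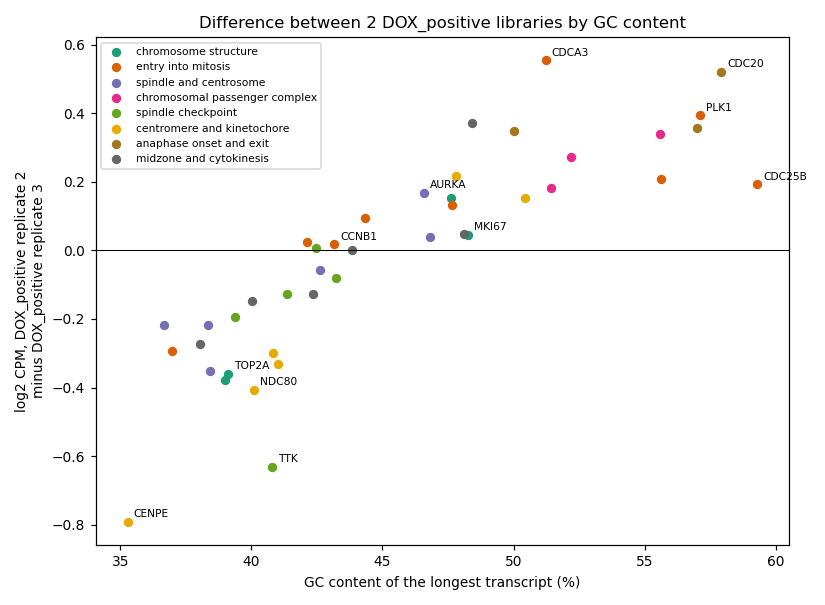
Log2 CPM of DOX_positive replicate 2 minus DOX_positive replicate 3 (vertical axis) against the GC content of the longest transcript in percent (horizontal axis), one point for each of the 42 members, coloured by role. Points rise from −0.79 (CENPE) to 0.56 (CDCA3), with negative values among the members of lowest GC content and positive values among those of highest GC content.

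When the trends of log2 CPM with GC content and length were removed from each library, 12.4% of all tested genes were called and still 0 members, the smallest edgeR adjusted p being 0.075 (CCNB1). The members' median log2 fold change was then −0.066. The spread of the difference between replicates 2 and 3 over the members went from an SD of 0.30 to 0.165. DOX_positive replicate 1 remained the highest library with a mean deviation of 0.087, close to the 0.080 of DOX_negative replicate 2. DOX_positive replicates 2 and 3 were at −0.059 and −0.15. The removal was incomplete for the members, whose difference of replicate 2 minus replicate 3 kept a rho of 0.54 with GC content and of −0.47 with length, where all 15830 genes had −0.026 and 0.018.

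Other genes of G2 and mitosis showed few calls as well. Of 123 further genes for kinetochores, checkpoint, spindle motors, condensin and cohesin, the anaphase-promoting complex, entry and MuvB-linked regulators, 123 were tested, 1 rose and 1 fell, with a median log2 fold change of −0.023. The background was 2.91% of all tested genes called higher and 1.96% called lower. MYBL2, which encodes B-MYB, a partner of MuvB at G2/M promoters, was at 265, 247 and 225 CPM in DOX_negative libraries and at 293, 341 and 326 CPM in DOX_positive libraries. It rose by 0.38 on the log2 scale (SE 0.085, edgeR adjusted p = 0.027), and its groups did not overlap. FAM83D, which recruits a kinase to the spindle, was at 50.8, 55.2 and 59.6 CPM and at 42.4, 41.3 and 34.7 CPM. It fell by 0.48 (SE 0.096, edgeR adjusted p = 0.018), again without overlap. DESeq2 called 8 of the 123, 4 in each direction, against 6% of all genes. The fit without GC and length trends called 14, with 6 higher and 8 lower, against 12.4% of all genes. Without DOX_negative replicate 2 or 3 the list held 0 calls, where 127 of 17243 and 58 of 17207 genes were called in all. Without DOX_positive replicates 1, 2 and 3 it held 4, 7 and 1, where 1034, 828 and 375 genes were called in all.

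Of 50 tested genes of G1/S and DNA replication, 6 rose and 0 fell with DOX, with a median log2 fold change of 0.14 and 44 estimates above 0. Over all tested genes 2.91% were called higher, 1.96% were called lower, and 8528 of 17026 estimates were above 0. The 50 genes were read in the same 6 libraries, so their directions are not separate observations. CCNE1, the cyclin that activates CDK2 at the G1/S transition, was at 17.6, 16.002 and 15.3 CPM without DOX and at 22.5, 26.3 and 27.8 CPM with DOX, a rise of 0.65 on the log2 scale (SE 0.10, edgeR adjusted p = 0.0070). The other largest rises were 0.34 for CDC25A, a phosphatase that activates CDK2, 0.34 for CDC6, which loads the MCM helicase, and 0.29 for RPA2, a subunit of the single-strand binding complex. Calls in this list were 1, 1 and 0 without DOX_negative replicates 1, 2 and 3, where 633, 127 and 58 genes were called in all. They were 3, 10 and 1 without DOX_positive replicates 1, 2 and 3, where 1034, 828 and 375 genes were called in all. The list's median stayed between 0.12 and 0.16 in all 18 alternative fits.

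The per-library level of the G1/S genes was −0.060, −0.072 and −0.084 in DOX_negative libraries and 0.059, 0.052 and 0.11 in DOX_positive libraries, and these did not overlap. The other G2/M genes were at −0.022, 0.041 and 0.033 and at 0.069, −0.10 and −0.019, which overlapped, as the members did. The level of the members minus that of the G1/S genes was 0.045, 0.16 and 0.15 in DOX_negative libraries and 0.045, −0.18 and −0.22 in DOX_positive libraries. DOX_positive replicate 1 thus had the same balance of the 2 lists as DOX_negative replicate 1, and DOX_positive replicates 2 and 3 lay below every DOX_negative library. The difference between the lists was not tested.

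**Figure D5:**
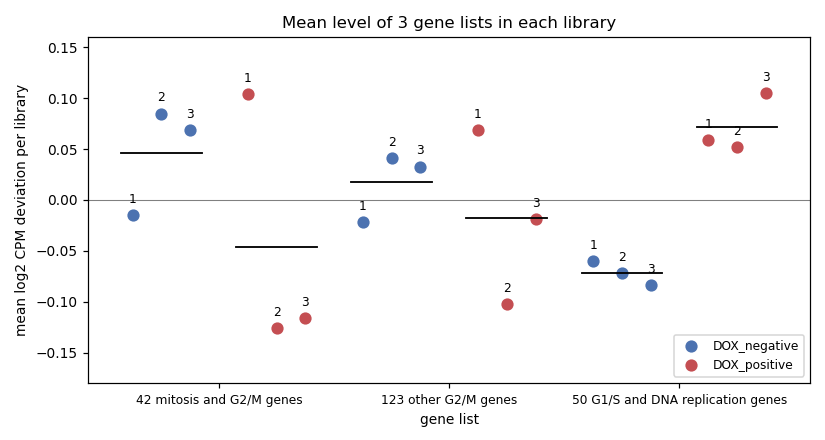
Mean log2 CPM deviation per library (vertical axis) for 42 mitosis and G2/M genes, 123 other G2/M genes and 50 G1/S and DNA replication genes (horizontal axis), with one point per library labelled by replicate number and lines for the group means. Only in the G1/S list do all 3 DOX_positive points (0.052 to 0.11) lie above all 3 DOX_negative points (−0.084 to −0.060).

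Of 10 inhibitors that hold cells in G1 or G2, 4 rose and 1 fell, against 2.91% of all tested genes called higher and 1.96% called lower. CDKN1A, the p21 inhibitor of CDK2 and CDK1 complexes, was at 445, 418 and 369.6 CPM in DOX_negative libraries and at 521, 659 and 717 CPM in DOX_positive libraries. It rose by 0.62 on the log2 scale (SE 0.11, edgeR adjusted p = 0.013). The lowest DOX_positive value of CDKN1A was in replicate 1, as for MYBL2, CCNE1, CDC25A and CDC6, while that of RPA2 was in replicate 2. GADD45B, a stress-induced gene whose family restrains CDK1, rose by 0.61 (SE 0.10, edgeR adjusted p = 0.0089), and SFN, the 14-3-3 sigma protein that keeps CDK1 in the cytoplasm, rose by 0.38 (SE 0.088, edgeR adjusted p = 0.031). CCNG2, an atypical cyclin of arrested cells, fell by 0.48 (SE 0.12, edgeR adjusted p = 0.043). This call was lost by limma-voom, by limma on TPM, with no scaling factors, and when any library other than DOX_negative replicate 1 was left out. Calls among the inhibitors were 3, 1 and 0 without DOX_negative replicates 1, 2 and 3, where 633, 127 and 58 genes were called in all. They were 4, 3 and 2 without DOX_positive replicates 1, 2 and 3, where 1034, 828 and 375 genes were called in all.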

How the data were processed

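RNA-Seq libraries were made from H660 cells with a stranded mRNA kit per the labels. Raw counts and TPM for each gene symbol were deposited by the authors; the submitters' processing notes name STAR, DESeq2 and GRCh38/hg38, with no versions or annotation. The authors normalized and tested counts with DESeq2. Here the deposited counts were tested with edgeR 4.0.16 in R 4.3.3 (filterByExpr, TMM, glmQLFit with robust estimation, glmQLFTest), DOX_positive against DOX_negative with no covariate, Benjamini-Hochberg over 17026 genes, called under 0.05. SE were derived from the F statistic. The fit was run on simulated counts with a log2 change of 1 in 200 of 16890 genes at a dispersion of 0.01. It recovered 197 of them with 9 false calls. Smaller changes and trends with GC content were not simulated. Alternatives were other scaling and filters, DESeq2 1.42.0, limma 3.58.1 on voom and on log2 of the deposited TPM with a pseudocount of 1 or 0.1, a replicate block, each library left out, and, chosen after seeing the data, removal of lowess trends with transcript GC content and length (GENCODE 29 transcripts; 15830 genes). The members and gene lists were chosen with earlier results of these data known. The lists were written from general knowledge. Values in every library are given for the 4 members with the highest and the 4 with the lowest fold change and for MKI67, TOP2A, CCNB1, CDK1, PLK1, AURKA, AURKB, FOXM1, CDC20 and MUC1, and at most 4 called genes are named from each other list. DOX_negative and DOX_positive libraries of the same number did not deviate together (correlations of −0.58, 0.040 and −0.065 over 13573 genes), so the numbers were not taken to pair them. A marker gene is not reported here.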

Additional observations from a re-analysis of the deposited data

How the results depend on the processing

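With 3 libraries per group, precision was limited mainly by the spread between libraries, since no member had fewer than 858 counts in a library. The members held 0 calls in all 12 alternative fits with 6 libraries, and their median log2 fold change stayed between −0.092 and −0.057; leaving out a library gave 0 to 2 calls and medians of −0.18 to −0.027. The replicate block gave 0 members called, a median of −0.090, 5 other G2/M genes, 4 G1/S genes, 6 inhibitors and 998 genes in all, and put NCAPG at −0.0043. MUC1 stayed below 0 throughout (−1.37 to −1.22), and limma on unfiltered log2(TPM + 1) gave it −1.22 with an adjusted p of 0.29. Limma on log2(TPM + 1) and log2(TPM + 0.1) with filtering called 30 and 35 genes, and without filtering 0 (332, 329 and 1248 genes at an unadjusted p under 0.05), with 0 in each cell cycle list; in the filtered fits 43.3% and 45.7% of calls were higher, against 59.8% by edgeR. DESeq2 called 1354 genes, 8 of them among the other G2/M genes. With no scaling factors 3 G1/S genes and 3 inhibitors were called. Removing GC and length trends gave 2109 genes, 14 other G2/M genes and 16 G1/S genes. Leaving out a library gave 58 (without DOX_negative replicate 3) to 1034 genes in all, 127 without DOX_negative replicate 2 and 375 without DOX_positive replicate 3, and 0 to 7 other G2/M genes, 0 to 10 G1/S genes and 0 to 4 inhibitors. What caused these shifts was not tested. Estimates near 0 changed sign for 7 members with 6 libraries. On log2(TPM + 1), log2(TPM + 0.1) and unfiltered log2(TPM + 1) NCAPH was at 0.0043, 0.0028 and 0.0043, BIRC5 at 0.0109, 0.0108 and 0.0109, and BUB1B at 0.0188, 0.0193 and 0.0188; without GC and length trends PLK4 was at 0.017, AURKB at −0.034, BUB1B at 0.0090 and CENPE at 0.024. With a library left out, 18 members changed sign, with ranges of −0.054 to 0.11 for MKI67, −0.26 to 0.0068 for TOP2A, −0.069 to 0.042 for NCAPH, −0.12 to 0.16 for NCAPG, −0.081 to 0.013 for CDC25B, −0.11 to 0.092 for PLK4, −0.046 to 0.10 for HMMR, −0.057 to 0.14 for KIF11, −0.042 to 0.12 for AURKB, −0.052 to 0.076 for BIRC5, −0.052 to 0.042 for BUB1B, −0.19 to 0.19 for CENPE, −0.22 to 0.014 for CENPI, −0.18 to 0.11 for NDC80, −0.12 to 0.048 for UBE2C, −0.11 to 0.058 for ESPL1, −0.10 to 0.027 for PRC1 and −0.038 to 0.057 for RACGAP1. The other 24 members kept their sign in all 18 alternatives.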
